A study of Homo sapiens with 14 samples.

Results

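The genes for 9 enzymes and cofactors of DNA methylation and of Polycomb repressive complex 2 (PRC2) were followed in the A549 and H1792 lung adenocarcinoma cell lines. They were DNMT1, UHRF1, HELLS, DNMT3A and DNMT3B for DNA methylation, and EZH2, EZH1, SUZ12 and EED for PRC2. They were chosen by name, matched to the gene symbols of the count tables, and make up 9 of the 26732 genes listed in both tables. All 9 were found and all 9 passed the filter on low counts in every comparison. RNA was sequenced from cultures that received the solvent DMSO or AMG900, an inhibitor of the aurora kinases, at 0.1 µM, and that were collected after 48 h. A549 had 4 DMSO and 4 AMG900 libraries, and H1792 had 3 of each. Each line is a single established tumor line, A549 grown in DMEM and H1792 in RPMI medium, so a difference between lines cannot be told apart from medium or from the separate count tables. The labels call the samples replicates without stating whether they were separate experiments, so the p-values measure the spread between these libraries, which may be technical.

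Methyl groups on CpG cytosines must be restored after every round of replication. UHRF1 binds the hemimethylated sites left behind the fork and brings in DNMT1, the maintenance methyltransferase, and HELLS is a chromatin remodeler that opens packed chromatin for this step. DNMT3A and DNMT3B place methyl groups on sites that had none. PRC2 methylates lysine 27 of histone H3, a mark of silenced genes. EZH2 or its paralog EZH1 is its catalytic subunit, and SUZ12 and EED are the core partners without which the complex is not active. EZH2 is known as the form of dividing cells and EZH1 as the form that remains in resting cells. Aurora kinases act in mitosis and cytokinesis, and cells in which they are inhibited commonly fail to divide.

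Depth differed between the lines. A549 libraries held 4254644 to 18962883 counts and H1792 libraries 42760874 to 79902934, and the biological coefficient of variation was 12.8% and 9.60%, respectively. The A549 DMSO replicate 1 was the smallest library and stood apart, at 50.6 on the second principal component against -20.7 to -18.7 in the other DMSO libraries of that line. Its EZH2 and HELLS were the highest of the 4, and its DNMT3A, DNMT3B and EED the lowest, so A549 values are given without it where that matters. Among 5 epithelial markers, the keratins KRT8 and KRT18 were abundant in both lines, while EPCAM had at most 10 counts in an A549 library and CDH1 at most 71 in an H1792 library. All 4 of these markers that were tested in A549 were higher with AMG900 (median log2 fold change 0.61, KRT19 at 1.58 and CDH1 at 0.82). In H1792, 1 of 5 was higher (KRT19 at 0.54). With a correction for GC content, 2 of 4 were called higher in A549 (median 0.45) and 0 of 5 in H1792. Over all genes tested, 17.2% were higher in A549, and 18.8% were lower and 16.2% higher in H1792. The surfactant genes SFTPA1, SFTPB and SFTPC and the lung factor NKX2-1, which define alveolar type II cells, had at most 12 counts in any library, and NAPSA, the other marker of that list, had at most 82 and was not called in either line. The leukocyte markers PTPRC and CD3E had at most 4 counts, and the fibroblast gene DCN reached 29.8 CPM (counts scaled to the TMM-adjusted library size) in H1792 with DMSO and 21.8 CPM with AMG900. Of 9 leukocyte, endothelial and fibroblast markers, 1 was tested and higher in A549 with AMG900 (CD68), and of 7 tested in H1792, 3 were lower and 3 higher. Without CD68, the summed level of the others, scaled here to plain library totals, was 0.470 to 6.99 CPM in A549 DMSO libraries and 1.03 to 1.92 CPM with AMG900, against 45.5 to 69.6 CPM and 37.6 to 42.4 CPM in H1792. With CD68, which takes most of the sum, it was 58.8 to 89.6 CPM and 145 to 167 CPM in A549, and 142 to 187 CPM and 206 to 224 CPM in H1792. The part of these marker levels in the results was not tested.

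The promoters of the genes called in A549 or in H1792 are shown, which are the 5 genes that fell in A549. All 5 hold the letters of an E2F site, the element through which E2F and RB family proteins act on replication genes. Each line gives RefSeq sequence of GRCh38.p14 from 250 bases before to 50 bases after the transcript start, read 5′ to 3′ on the strand of the gene. Capitals mark TTTCCCGC, TTTCGCGC, TTTGCCGC or TTTGGCGC on either strand, and TTTGAA (the cell cycle homology region, CHR) on either strand. DNMT1 lies at chr19:10194904-10195203 on the minus strand, UHRF1 at chr19:4909251-4909550 on the plus strand (the first of its 3 listed windows), HELLS at chr10:94545538-94545837 on the plus strand, EZH2 at chr7:148884242-148884541 on the minus strand (the first of 2) and SUZ12 at chr17:31936757-31937056 on the plus strand.
DNMT1: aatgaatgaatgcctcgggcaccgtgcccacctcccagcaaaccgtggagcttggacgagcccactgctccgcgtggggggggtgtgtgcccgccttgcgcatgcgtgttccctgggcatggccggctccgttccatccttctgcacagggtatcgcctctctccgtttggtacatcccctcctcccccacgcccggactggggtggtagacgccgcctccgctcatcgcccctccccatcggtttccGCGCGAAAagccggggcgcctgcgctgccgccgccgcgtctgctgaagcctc
UHRF1: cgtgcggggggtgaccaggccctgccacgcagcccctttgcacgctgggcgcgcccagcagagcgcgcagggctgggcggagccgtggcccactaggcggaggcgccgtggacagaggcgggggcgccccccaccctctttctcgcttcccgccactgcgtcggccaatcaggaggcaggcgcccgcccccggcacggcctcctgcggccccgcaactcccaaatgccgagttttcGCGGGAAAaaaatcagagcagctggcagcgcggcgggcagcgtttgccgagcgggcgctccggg
HELLS: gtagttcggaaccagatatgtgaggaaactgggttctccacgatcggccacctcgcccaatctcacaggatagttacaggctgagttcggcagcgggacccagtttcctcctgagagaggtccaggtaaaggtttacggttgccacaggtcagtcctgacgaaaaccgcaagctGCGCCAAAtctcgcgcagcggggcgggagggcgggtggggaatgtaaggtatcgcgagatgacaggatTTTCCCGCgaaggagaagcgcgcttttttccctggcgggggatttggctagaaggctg
EZH2: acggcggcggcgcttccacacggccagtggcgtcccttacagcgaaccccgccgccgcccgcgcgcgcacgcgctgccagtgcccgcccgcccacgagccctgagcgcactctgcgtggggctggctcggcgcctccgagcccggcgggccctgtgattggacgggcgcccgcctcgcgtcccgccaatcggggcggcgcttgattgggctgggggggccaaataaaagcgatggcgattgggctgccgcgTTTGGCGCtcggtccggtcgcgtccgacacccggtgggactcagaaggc
SUZ12: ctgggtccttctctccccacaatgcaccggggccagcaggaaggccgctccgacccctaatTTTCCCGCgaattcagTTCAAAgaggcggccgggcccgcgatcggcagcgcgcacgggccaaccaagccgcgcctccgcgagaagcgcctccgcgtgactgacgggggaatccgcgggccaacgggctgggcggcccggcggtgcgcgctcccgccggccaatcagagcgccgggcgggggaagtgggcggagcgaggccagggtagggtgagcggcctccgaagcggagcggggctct
The DNMT1 match reached across the transcript start, from base -2 to base 6, and the EZH2 match lay just inside the transcript, from base 2 to base 9. HELLS held a pair of matches, at -76 to -69 and at -8 to -1, and UHRF1 held 1 at -14 to -7 and another in its second window. The SUZ12 match lay farther upstream, at -189 to -182, and SUZ12 was the only gene of these 5 with the CHR letters, at -173 to -168. EZH1, which was not called in A549, also held an E2F match at -115 to -108, whereas no window of DNMT3A, DNMT3B or EED had one. The EZH1 match lay on the other strand, as did those of DNMT1, of UHRF1 at -14 to -7 and of HELLS at -76 to -69. In total, 6 of the 9 genes had the E2F letters in at least 1 window, as against 6.58% of the 9859 genes tested in A549 that the promoter table lists. Over all 35116 windows of that length, 3.31% held the E2F letters and 15.2% the CHR letters. A match describes letters in the window and not a bound site.

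Levels can be ranked between genes only per length of transcript, and CPM per kilobase of the canonical transcript (CPM per kb), TMM-scaled over all libraries, was used for this. With DMSO, DNMT1 was the highest of the 9 in both lines, at 32.7 ± 1.42 (SD, n = 4) CPM per kb in A549 and 47.7 ± 0.612 (n = 3) in H1792. UHRF1 came next, at 16.1 ± 1.17 and 20.3 ± 2.47, and EZH2 after it, at 11.6 ± 3.20 and 9.04 ± 0.756. The UHRF1 and EZH2 libraries did not overlap in H1792, and in A549 they overlapped only through DMSO replicate 1, where EZH2 was at 16.4 CPM per kb, against 9.48 to 10.8 in the other 3. EZH1 and EED followed in A549, at 5.75 ± 0.693 and 3.85 ± 0.946 CPM per kb. The lower places in A549, from EED over DNMT3B, HELLS and SUZ12 to DNMT3A at 1.43 ± 0.337, formed a series in which each gene overlapped the next, although all DNMT3A libraries lay below all libraries of DNMT3B and EED, and those of SUZ12 below those of EED. In H1792, SUZ12 at 0.950 ± 0.105 and HELLS at 0.627 ± 0.0370 were the lowest of the 9. After AMG900 the order in H1792 was little altered, with DNMT1, UHRF1 and EZH2 still at the top without overlap. In A549, however, EZH1 at 6.55 ± 0.782 CPM per kb stood second to DNMT1 at 13.3 ± 1.11, and UHRF1, at 3.06 ± 0.159, overlapped EZH2, at 3.01 ± 0.333.

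**Figure D1:**
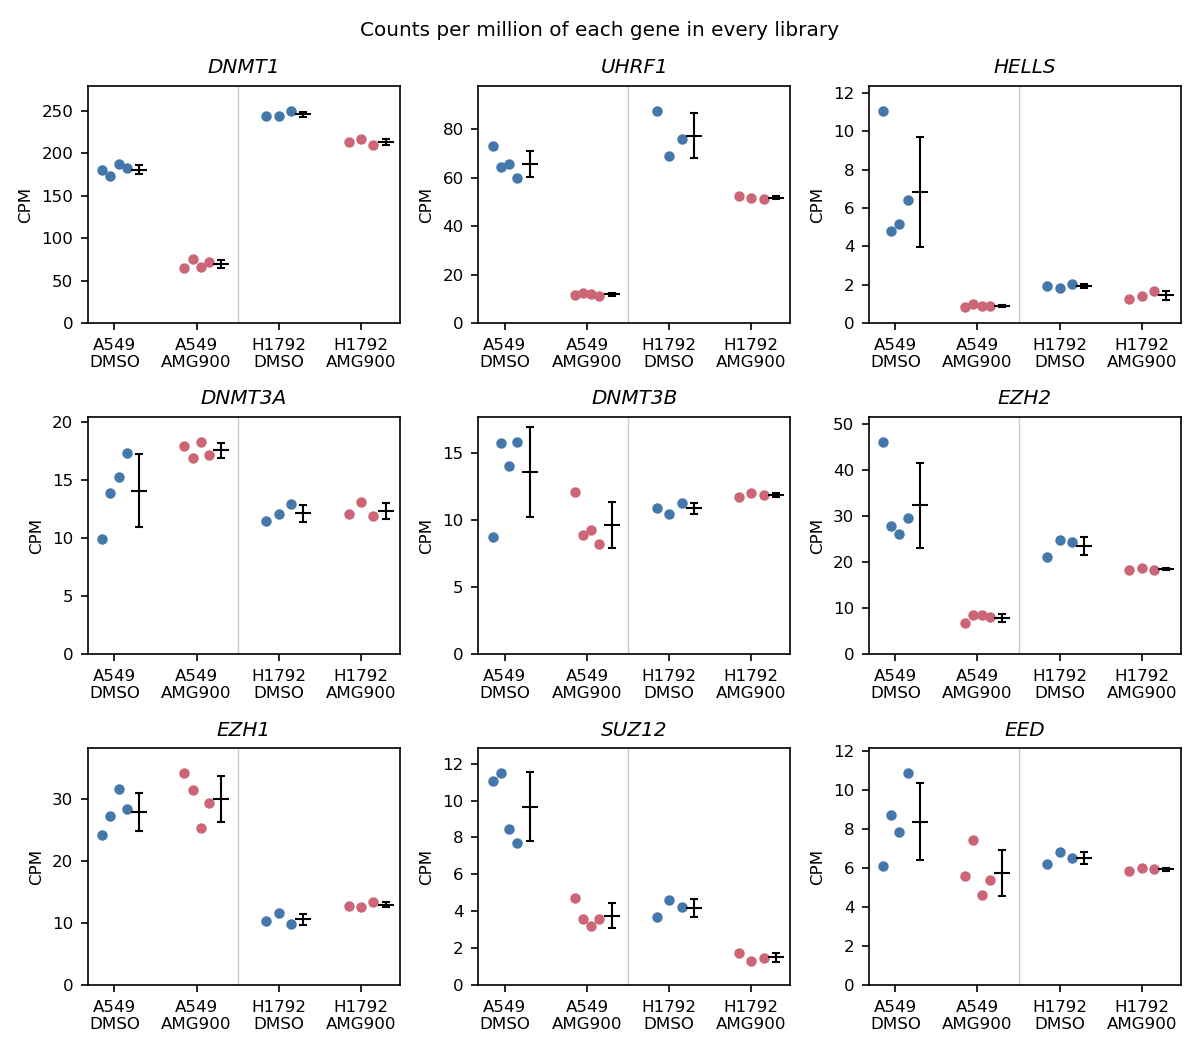
CPM (linear axis from 0) of the 9 genes in every library, blue for DMSO and red for AMG900, with the group mean and SD as black bars beside the points (n = 4 per group in A549, n = 3 in H1792). In A549 the AMG900 points of DNMT1, UHRF1, HELLS, EZH2 and SUZ12 lie below all DMSO points, and in H1792 SUZ12 lies at 3.67 to 4.60 CPM with DMSO and 1.30 to 1.76 CPM with AMG900.

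AMG900 lowered the RNA of DNMT1 and UHRF1 in both lines, and that of HELLS in A549. DNMT1 was at 179.5, 173, 187 and 182 CPM in the A549 DMSO libraries and at 64.9, 75.5, 65.5 and 72.3 CPM with AMG900. The groups were far apart, and DNMT1 fell by 61.5%, which on the log2 scale was -1.38 ± 0.07 (SE, edgeR adjusted p = 2.2e-09). In H1792, DNMT1 was at 244, 244 and 249 CPM with DMSO and at 212, 217 and 209 CPM with AMG900. The groups did not overlap there either, but the fall was only 13.3%, a log2 fold change of -0.21 ± 0.05 (adjusted p = 0.00443). This call was lost without DMSO replicate 3 or without any of the 3 AMG900 replicates, with adjusted p up to 0.0289. In bulk RNA, fewer cells that express a gene and less of its RNA per cell cannot be told apart.

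UHRF1, the reader that recruits DNMT1, had a larger fitted fall than DNMT1 in both lines. In A549 it was at 72.8, 64.2, 65.6 and 59.8 CPM with DMSO and at 11.6, 12.6, 12.0 and 11.0 CPM with AMG900, and thus 5.53-fold lower. The log2 fold change was -2.47 ± 0.10 (edgeR adjusted p = 1.3e-10). In H1792, UHRF1 was at 87.3, 68.9 and 75.9 CPM with DMSO and at 52.3, 51.6 and 51.1 CPM with AMG900. All treated libraries lay below all controls and UHRF1 fell by 33.2% (log2 fold change -0.58 ± 0.08, adjusted p = 2.1e-04), and the call held in all 6 fits that left out a library. Part of the UHRF1 transcript, 36.5%, aligned at 95% identity or more to a processed pseudogene on chromosome 12, so reads from that part may not be uniquely placed.

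HELLS, the remodeler, fell in A549 from a low level. It was at 11.0, 4.83, 5.16 and 6.41 CPM with DMSO and at 0.850, 0.983, 0.863 and 0.905 CPM with AMG900. The treated libraries held only 9 to 16 HELLS counts each, and the log2 fold change was -2.85 ± 0.31 (edgeR adjusted p = 3.7e-06), or -2.60 without DMSO replicate 1. In H1792, HELLS was at 1.91, 1.81 and 2.03 CPM with DMSO and at 1.25, 1.40 and 1.68 CPM with AMG900. The groups did not overlap, but the log2 fold change of -0.41 ± 0.19 did not pass the test (adjusted p = 0.0973), with a 95% interval from -0.84 to 0.01.

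Neither de novo methyltransferase passed the test in either line with all libraries. DNMT3A, the main de novo enzyme of differentiated cells, was at 9.87, 13.8, 15.2 and 17.3 CPM in A549 with DMSO and at 18.0, 16.9, 18.2 and 17.1 CPM with AMG900. The groups overlapped and the log2 fold change of 0.28 ± 0.15 was not called (edgeR adjusted p = 0.130). In H1792 the DNMT3A value was 0.02 ± 0.09, with a 95% interval from -0.17 to 0.22. These are values within the spread between libraries. DNMT3B was at 8.69, 15.7, 14.1 and 15.8 CPM in A549 with DMSO and at 12.1, 8.91, 9.28 and 8.21 CPM with AMG900. Only DMSO replicate 1 lay among the treated libraries, and the log2 fold change of -0.54 ± 0.18 missed the threshold (adjusted p = 0.0240). Without that library it was -0.67 and passed (adjusted p = 4.5e-04). In H1792, DNMT3B was at 10.4 to 11.3 CPM with DMSO and 11.7 to 12.0 CPM with AMG900, without overlap, and the difference of 0.12 ± 0.08 was not called (adjusted p = 0.232).

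**Figure D2:**
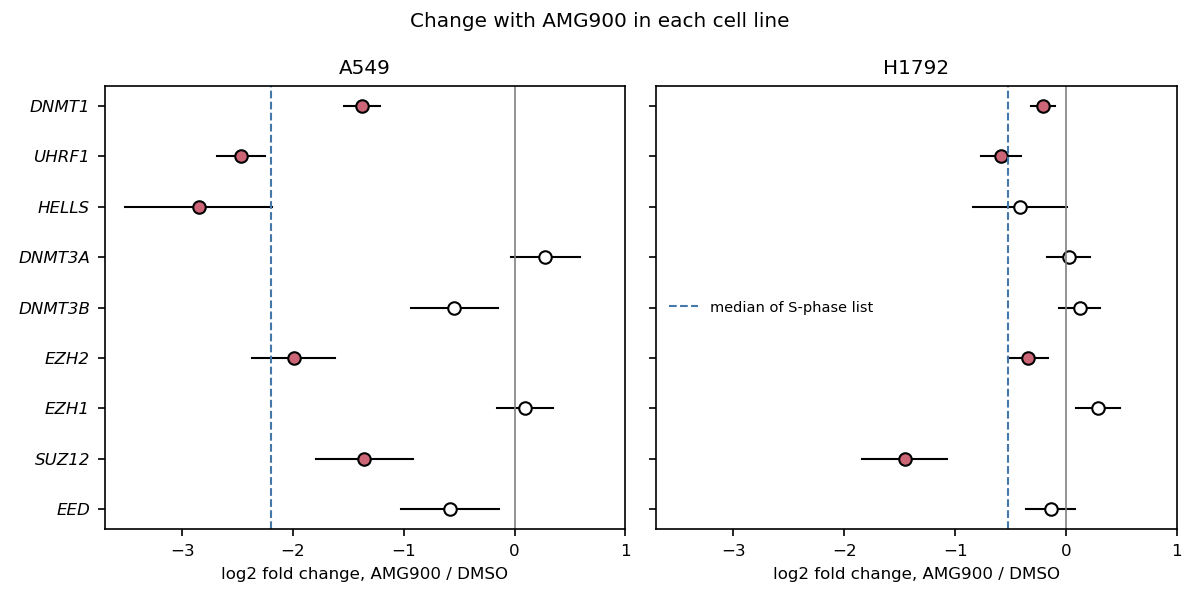
Log2 fold change of AMG900 over DMSO in A549 (left) and H1792 (right), points with 95% confidence intervals from edgeR, filled where the adjusted p was under 0.01, and a dashed line at the median of the S-phase list. UHRF1 at -2.47 and HELLS at -2.85 lie left of the line in A549, and in H1792 SUZ12 at -1.46 is the gene farthest from 0.

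The catalytic subunits of PRC2 diverged. EZH2 was at 46.1, 27.8, 26.1 and 29.6 CPM in A549 with DMSO and at 6.71, 8.42, 8.52 and 7.95 CPM with AMG900. The groups were separate and EZH2 was 3.98-fold lower (log2 fold change -1.99 ± 0.17, edgeR adjusted p = 4.3e-07), with a log2 value of -1.81 without DMSO replicate 1. In H1792, EZH2 was at 21.2, 24.8 and 24.3 CPM with DMSO and at 18.3, 18.8 and 18.3 CPM with AMG900. All treated libraries were lower, and EZH2 fell by 21.0% (log2 fold change -0.34 ± 0.08, adjusted p = 0.00524), and this call was kept in only 1 of the 6 fits that left out a library, that without DMSO replicate 1. Without DMSO replicate 2 or 3, or without any of the AMG900 replicates, the adjusted p was 0.0124 to 0.0272. Part of the EZH2 transcript, 11%, aligned at up to 96.2% identity to the processed pseudogene EZH2P1 on chromosome 21. EZH1 was at 24.2, 27.2, 31.6 and 28.4 CPM in A549 with DMSO and at 34.1, 31.4, 25.3 and 29.4 CPM with AMG900. The groups overlapped, with a log2 fold change of 0.09 ± 0.12 (95% interval -0.16 to 0.35, adjusted p = 0.545). In H1792, EZH1 was at 10.4, 11.6 and 9.80 CPM with DMSO and at 12.8, 12.6 and 13.4 CPM with AMG900. All treated libraries were above all controls, but the value of 0.29 ± 0.09 did not pass (adjusted p = 0.0219) unless DMSO replicate 2 was left out (0.35, adjusted p = 0.00939).

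The balance of the EZH paralogs was therefore compared within each library, where library scaling cancels. The GC content of the transcripts, 50.6% for EZH1 and 44.9% for EZH2, does not cancel, and its part in the ratio was not tested. The log2 ratio of EZH1 to EZH2 counts was -0.18 ± 0.52 (SD, n = 4) in A549 with DMSO and 1.92 ± 0.32 with AMG900, a difference of 2.10, with a two-sided exact permutation p of 0.0286, the lowest value that groups of 4 can reach. Without DMSO replicate 1 the difference was 1.86. In H1792 the log2 ratio went from -1.14 ± 0.15 (SD, n = 3) to -0.52 ± 0.06, a difference of 0.63. All 3 treated libraries lay above all 3 controls, with an exact permutation p of 0.10, the smallest this design allows. Per kilobase, EZH1 made up 33.9 ± 7.58% of the EZH1 and EZH2 reads of A549 with DMSO and 68.4 ± 4.70% with AMG900. In H1792 its share was 20.6 ± 1.65% and 28.6 ± 0.854%, so EZH2 reads remained the larger part there in every library.

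**Figure D3:**
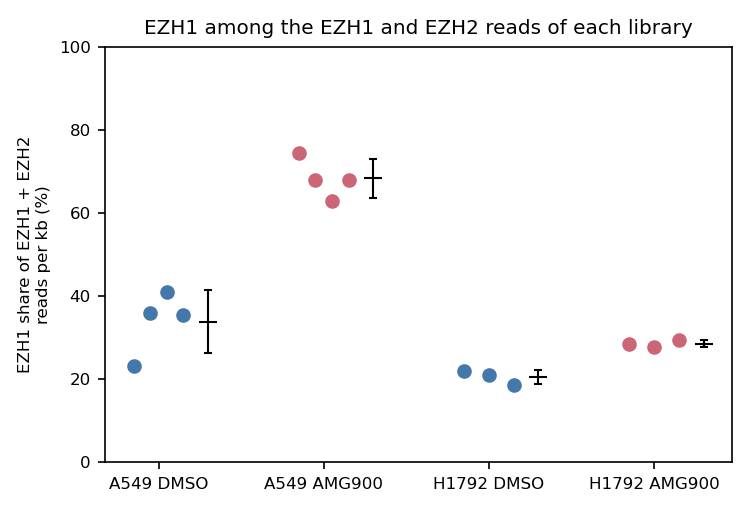
Share of EZH1 in the EZH1 and EZH2 reads per kilobase of each library (percent, axis from 0 to 100), blue for DMSO and red for AMG900, with mean and SD as black bars (n = 4 per group in A549, n = 3 in H1792). The A549 AMG900 libraries sit between 63.0% and 74.4% and the A549 DMSO libraries between 23.1% and 41.0%.

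Of the core subunits, SUZ12 was called in both lines and EED in neither with all libraries, and the genes were not tested against each other. SUZ12, which holds the complex together, was at 11.0, 11.5, 8.45 and 7.72 CPM in A549 with DMSO and at 4.72, 3.58, 3.18 and 3.56 CPM with AMG900. The groups did not overlap, and SUZ12 was 2.56-fold lower (log2 fold change -1.35 ± 0.20, edgeR adjusted p = 8.3e-05). In H1792 it was at 3.67, 4.60 and 4.24 CPM with DMSO and at 1.76, 1.30 and 1.45 CPM with AMG900. SUZ12 was thus 2.74-fold lower there (log2 fold change -1.46 ± 0.17, adjusted p = 7.7e-05), and the fall passed in all 8 and all 6 fits that left out a library. SUZ12 shares 22.8% of its transcript at 95% identity or more with the pseudogene SUZ12P1 on chromosome 17. A long noncoding RNA gene on that chromosome aligned to 14.3% of the SUZ12 transcript, at up to 99.4% identity. SUZ12P1 itself was at 0.488 ± 0.108 CPM with DMSO and 0.810 ± 0.234 CPM with AMG900 in H1792 (SD, n = 3), and at 0.923 ± 0.407 and 0.951 ± 0.458 CPM in A549 (n = 4). EED, the subunit that reads the mark, was at 6.11, 8.74, 7.85 and 10.9 CPM in A549 with DMSO and at 5.57, 7.44, 4.64 and 5.37 CPM with AMG900. These groups overlapped, and the log2 fold change of -0.58 ± 0.21 was not called (adjusted p = 0.0296) unless DMSO replicate 1 was left out (-0.68, adjusted p = 0.00440). In H1792 the EED value was -0.13 ± 0.10 (adjusted p = 0.283).

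Counted over both systems, 5 of the 9 genes were called lower and 0 higher in A549 at an adjusted p under 0.01, where 17.8% of the 13174 genes tested were called lower and 17.2% higher. In H1792, 4 of the 9 were called lower and 0 higher, where 18.8% of 15017 genes were called lower and 16.2% higher. DNMT1, UHRF1, EZH2 and SUZ12 were called in both lines and HELLS in A549. At an unadjusted p under 0.05 0 of the 9 were higher in A549 and 1 in H1792 (EZH1), and DESeq2 called 0 higher in each line. The 9 genes had a median log2 fold change of -1.35 in A549 and -0.21 in H1792, beside -0.01 and 0.01 over all genes tested.

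Whether the response differed between lines was tested directly with the interaction of line and treatment over all 14 libraries. In this fit 4 of the 9 genes responded differently, each with a smaller fall in H1792, where 5.37% of the 14769 genes tested had a higher effect in H1792 and 9.17% a lower one. The effect in H1792 minus that in A549 was 1.09 ± 0.09 (SE) on the log2 scale for DNMT1 (edgeR adjusted p = 5.4e-08), 1.81 ± 0.13 for UHRF1 (2.5e-09), 2.36 ± 0.38 for HELLS (1.3e-04) and 1.57 ± 0.21 for EZH2 (1.6e-05). For SUZ12 the difference was -0.18 ± 0.27 (adjusted p = 0.675), with a 95% interval from -0.74 to 0.38, below the estimates of these 4 genes. DNMT3B differed by 0.61 ± 0.22 (adjusted p = 0.0484), and by 0.73 without A549 DMSO replicate 1 (adjusted p = 0.00258). DNMT3A, EZH1 and EED were not called either, at -0.32, 0.12 and 0.39.

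S-phase genes were mostly lower in both lines, and G2/M genes in A549. Of a list of S-phase genes without the 9, 38 of 39 were lower in A549 with a median log2 fold change of -2.20, and 25 of 40 were lower and 1 higher in H1792 with a median of -0.52. Of the G2/M genes, 50 of 52 were lower in A549 (median -2.84), whereas 11 of 53 were lower and 7 higher in H1792 (median -0.04). Over all genes tested, 17.8% were lower in A549, and 18.8% were lower and 16.2% higher in H1792. The interaction test called 29 of 40 S-phase genes and 46 of 53 G2/M genes, all with a higher effect in H1792 than in A549, whether the gene fell less there, was not called or rose. The ranks that follow are of fitted values without a GC correction. UHRF1 and HELLS fell more than most of the S-phase list in A549, as only 17 and 15 of the 39 genes had a lower log2 fold change. EZH2 stood below the middle of the list, with 24 of 39 genes lower, and 31 of 39 were lower than DNMT1 and likewise SUZ12. In H1792, 16 of the 40 S-phase genes were lower than UHRF1 and 30 were lower than DNMT1. SUZ12 was the exception there, with only 2 of 40 S-phase genes and 4 of 53 G2/M genes below it. The part of the cell cycle distribution in the change of the 9 genes was not tested.

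GC content moved with the fold changes of all genes in both lines, with a Spearman rho across genes of 0.50 in A549 (12739 genes) and 0.48 in H1792 (14307 genes), which are descriptions since genes are not independent replicates. SUZ12 and HELLS have AT-rich transcripts, at 38.2% and 38.8% GC, and UHRF1 and DNMT1 lie at the other end, at 55.7% and 54.9%, while the median of the genes tested was 49.2% in A549 and 49.5% in H1792. With a GC correction of each library, the log2 fold change of SUZ12 was -0.86 in A549 (edgeR adjusted p = 0.00189) and -0.98 in H1792 (adjusted p = 4.1e-04), so that SUZ12 still passed in both. HELLS was at -2.38 in A549 and at 0.01 in H1792. EZH2 stayed at -1.81 in A549 but came to -0.22 in H1792 and no longer passed (adjusted p = 0.0181). DNMT1 and UHRF1 moved the other way, to -0.40 and -0.80 in H1792 and to -1.57 and -2.69 in A549. DNMT3B passed in A549 with the correction, at -0.70 (adjusted p = 0.00431). Of the interaction calls, all 4 held, with DNMT1 at 1.23, UHRF1 at 1.95, HELLS at 2.40 and EZH2 at 1.60, and SUZ12 remained uncalled at -0.11. The corrected median of the S-phase list was -2.32 in A549 and -0.32 in H1792, and that of the G2/M list -2.61 and 0.08. HELLS, at -2.38 in A549, thus lay close to the corrected S-phase median. In H1792, 20 of 40 S-phase genes were then lower and 2 higher, and 10 of 52 G2/M genes lower and 13 higher.

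**Figure D4:**
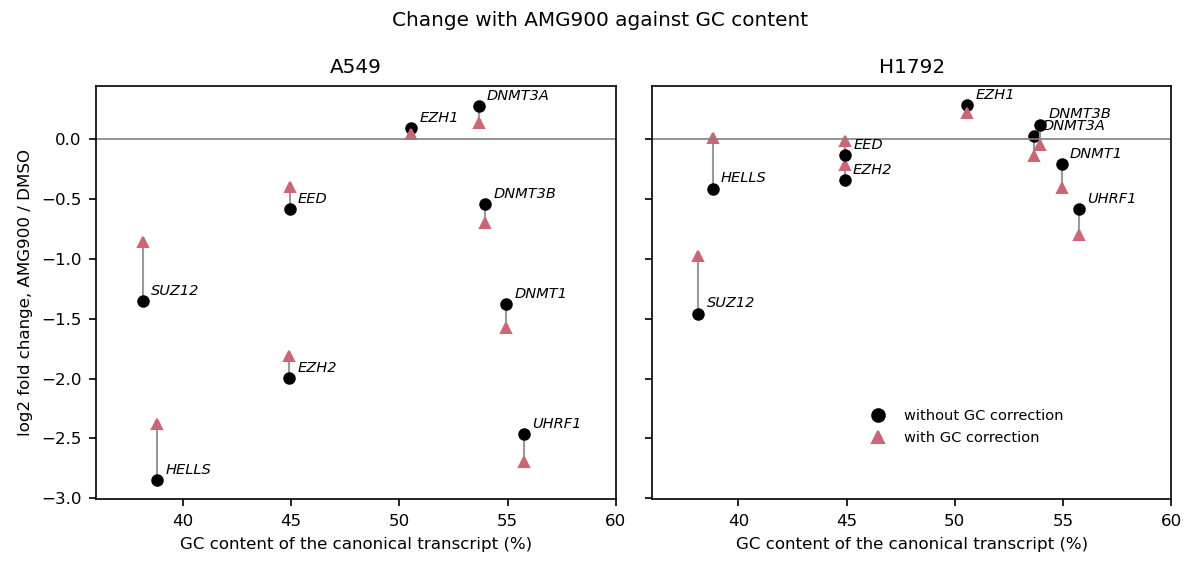
Log2 fold change of AMG900 over DMSO against the GC content of the canonical transcript (percent) for the 9 genes in A549 (left) and H1792 (right), black circles without and red triangles with the GC correction. The AT-rich HELLS moves from -0.41 to 0.01 in H1792, and SUZ12 stays below 0 in both lines at -0.86 and -0.98.

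With DMSO alone, 3 of the 9 genes were lower and 2 higher in H1792 than in A549, where 31.9% and 34.2% of the 14769 genes tested were called in those directions. HELLS had a log2 difference of -1.67 ± 0.25 (SE), EZH1 of -1.31 ± 0.12 and SUZ12 of -1.09 ± 0.18, and the edgeR adjusted p was 2.8e-05 or less for each. DNMT1 was higher in H1792 by 0.54 ± 0.07 (adjusted p = 4.6e-07). UHRF1 was higher by 0.35 ± 0.08 (adjusted p = 0.00112), which fell to 0.24 and was no longer called with total-count scaling or with the GC correction. EZH2 (-0.33), DNMT3A (-0.17), DNMT3B (-0.27) and EED (-0.32) were not called, but DNMT3B passed without A549 DMSO replicate 1 (-0.39, adjusted p = 0.00753).

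Among partners of the DNA methylation enzymes, 6 of 15 genes tested were lower and 0 higher in A549. In H1792, 9 of 16 were lower and 1 higher. The median log2 fold changes were -0.37 in A549 and -0.45 in H1792. Over all genes tested, 17.8% were lower and 17.2% higher in A549, and 18.8% lower and 16.2% higher in H1792. In A549, 2 of the partners were higher at an unadjusted p under 0.05, and DESeq2 called 0 higher. CDCA7, the factor that activates HELLS, was at 23.3 ± 1.14 CPM (SD, n = 4) in A549 with DMSO and at 7.16 ± 0.956 CPM with AMG900. It fell in both lines, with log2 fold changes of -1.69 ± 0.13 in A549 (edgeR adjusted p = 1.5e-07) and -0.97 ± 0.09 in H1792 (1.5e-05), and the fall was smaller in H1792 by 0.64 ± 0.16 (0.00592). Its relative CDCA7L fell by 1.42 in A549 and by 1.13 in H1792 on the log2 scale. UHRF2, the relative of UHRF1, fell in A549 (-1.47 ± 0.24, adjusted p = 2.1e-04) and in H1792 (-1.31 ± 0.20, adjusted p = 3.7e-04), and unlike UHRF1 its interaction was not called (0.08 ± 0.35, adjusted p = 0.909). USP7, the deubiquitinase that stabilizes DNMT1 and UHRF1, was lower in A549 at -0.53 ± 0.11 and was not called in H1792 at -0.20 ± 0.06. The glycosylase MBD4 was called in H1792 (-0.49) and not in A549 (-0.31).

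Of the PRC2 partners, 4 of 9 tested were lower in A549 and 5 of 9 in H1792. The medians were -0.68 and -0.39, and 0 were higher in each line. Over all genes tested, 17.8% were lower and 17.2% higher in A549, and 18.8% lower and 16.2% higher in H1792. At an unadjusted p under 0.05, 0 of these partners were higher in A549 and 1 in H1792, and DESeq2 called 0 higher in each. PHF19, a reader that directs PRC2 to chromatin, was at 101.0 ± 7.47 CPM (SD, n = 4) in A549 with DMSO and at 26.6 ± 1.70 CPM with AMG900. In H1792 it was at 111 ± 3.87 and 109.5 ± 2.72 CPM (n = 3), groups within their spread. Its log2 fold changes were -1.92 ± 0.09 and -0.02 ± 0.05, and the interaction was 1.83 ± 0.11 (edgeR adjusted p = 2.3e-10). The histone-binding subunits RBBP4 and RBBP7 were lower in both lines, at -0.41 and -0.75 in A549 and at -0.53 and -0.39 in H1792. AEBP2 was lower by -0.81 and -0.86, respectively, and MTF2 was called in H1792 (-1.12 ± 0.13) and not in A549 (-0.80 ± 0.32, adjusted p = 0.0475). JARID2 (-0.37 and 0.19) and PHF1 (0.21 and 0.00) were not called in either line. The demethylases that remove the PRC2 mark moved in opposite directions, with KDM6A lower (-1.66 ± 0.30 in A549, -0.87 ± 0.19 in H1792) and KDM6B higher (0.85 ± 0.11 and 0.52 ± 0.07), all 4 values past the threshold.

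**Figure D5:**
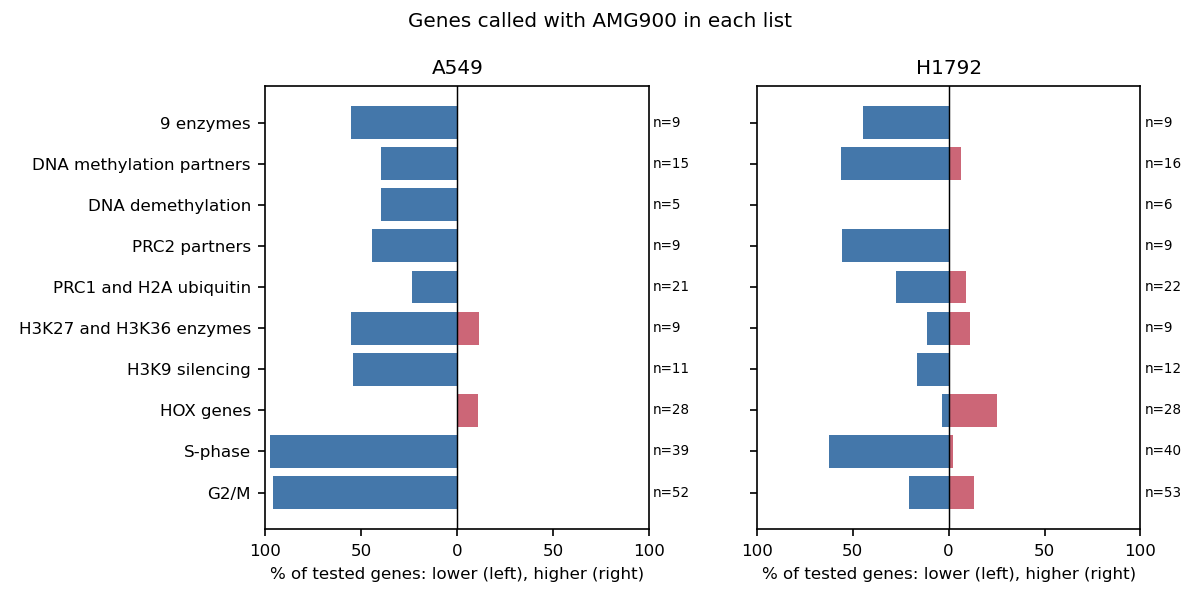
Percent of the tested genes of each list called lower (blue, left) or higher (red, right) with AMG900 at an adjusted p under 0.01, in A549 and H1792, with the number tested (n) at the right of each bar. The S-phase and G2/M lists are nearly all lower in A549, where 38 of 39 and 50 of 52 were called, and the 9 enzymes are called lower in 5 and 4 cases.

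Across the 14 libraries, which share line and treatment differences, the 9 genes did not move as a block. Pearson's r of log2 CPM was 0.96 for DNMT1 with UHRF1, 0.93 for UHRF1 with EZH2 and 0.86 for HELLS with EZH2. EZH1 had r = -0.79 with DNMT1 and -0.43 with EZH2, and SUZ12 had r = -0.08 with DNMT1 and 0.37 with EZH2. Among 8508 genes with enough counts, the closest pattern to DNMT1 was that of E2F1 (r = 0.996), followed by NCAPH and RFC2. The closest to UHRF1 were CHAF1A, RRM2 and H2AFZ (r = 0.990 to 0.994), and to EZH2 the mitotic genes CEP55, KIF11 and KIF4A (0.976 to 0.982). HELLS was closest to PAQR4 (0.978) and TOP2A (0.977). SUZ12 was closest to TNPO1, PTPN11 and SRSF1 (0.983 to 0.989), none of which is in the S-phase or G2/M lists. EZH1 was closest to PHF23, THADA and INTS3 at 0.987 each, DNMT3A to SLC9A8 (0.958), DNMT3B to USP54 (0.920) and EED to HNRNPH3 (0.842).

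The gene bodies lie, on GRCh37, at chr19:10244018-10341962 for DNMT1, chr19:4903092-4962165 for UHRF1, chr10:96305086-96373662 for HELLS, chr2:25450724-25565459 for DNMT3A and chr20:31350191-31397165 for DNMT3B. Those of PRC2 lie at chr7:148504349-148581413 for EZH2, chr17:40852293-40897067 for EZH1, chr17:30264026-30328057 for SUZ12 and chr11:85912254-85989855 for EED. Counts are of whole genes, so isoforms were not separated. DNMT1 overlaps S1PR2 on the same strand and EED overlaps an antisense long noncoding RNA that shares 10.6% of its transcript. The strand setting of the counting is not given in the sources used here.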

How the data were processed

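RNA-seq libraries of A549 (4 DMSO, 4 AMG900) and H1792 (3 DMSO, 3 AMG900) cells were analysed from the raw read counts per gene symbol that the authors deposited, 1 table per line, without normalization. The submitters' processing notes name STAR, HTSeq, hg19 and GRCh37 (versions not given in the sources used here). In H1792, 28 rows named by dates rather than symbols, at most 0.117% of a library's counts, were left out. Groups were taken from the labels.

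Genes passing filterByExpr were fitted with edgeR 4.0.16 (TMM scaling, quasi-likelihood test, R 4.3.3) within each line, and over all 14 libraries for the interaction and the DMSO contrast. P-values were Benjamini-Hochberg adjusted over all genes tested, with a threshold of 0.01. The study's methods used DESeq2, which served here as an alternative (version 1.42.0). CPM values were scaled to each library's effective size, the total over the tested genes times its TMM factor within the line, and log2 CPM (prior count 2) for correlations and CPM per kb used TMM factors over all 14 libraries. The EZH1 and EZH2 counts had 0.5 added before their ratio. The code was tested on simulated counts.

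Positions, lengths and GC content came from GENCODE on GRCh37, shared sequence from BLAST 2.17.0 (alignments of at least 100 bases and 95% identity), and promoters from RefSeq GRCh38.p14, which lists all 9 genes. GC content was corrected with a spline of 5 degrees of freedom per library. Alternatives were DESeq2, other scalings and filters, a threshold of 0.05, leaving out each library, a replicate block and the GC correction, the latter also with the block (chosen after the data were seen).

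The genes and lists were chosen with earlier results of these data known. Named besides the 9 were a fixed set of partners, up to 3 genes per list and line with the largest called changes and a mean of at least 100 counts, and up to 3 of the genes most correlated with each.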

Additional observations from a re-analysis of the deposited data

Results flagged for a closer look

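The response to AMG900 differed between the lines by the interaction test for 4 of the 9 genes. The log2 effect in H1792 minus that in A549 was 1.09 for DNMT1, 1.81 for UHRF1, 2.36 for HELLS and 1.57 for EZH2. Each difference kept its direction and its call in all 14 fits that left out a library, from 1.06 to 1.13 for DNMT1, 1.73 to 1.89 for UHRF1, 2.12 to 2.50 for HELLS and 1.40 to 1.65 for EZH2. Line, medium and count table cannot be told apart in this design. Among the 20 sets of 4 A549 values screened for a sample far from the others, 0 were marked.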

How the results depend on the processing

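No called value changed sign. Among values not called, DNMT3A (-0.14), DNMT3B (-0.05) and HELLS (0.01) in H1792 had the opposite sign with the GC correction. All 5 A549 calls and all 4 interaction calls held under every alternative that could be fitted, although HELLS was not tested when at least 10 counts were required in every A549 library. DNMT3B and EED joined the A549 calls without DMSO replicate 1 (7 lower in place of 5), and DESeq2, a threshold of 0.05 or leaving out that library added DNMT3B to the interaction calls. In H1792, the number of genes lower was 2 to 4 and higher 0 to 1 over the fits that left out a library, UHRF1 and SUZ12 passed in all of them, and a threshold of 0.05 gave 1 higher (EZH1). In the DMSO contrast, total-count scaling and the GC correction each left 1 gene higher in H1792 (DNMT1).

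Same-numbered DMSO and AMG900 libraries showed no shared deviation (correlations from -0.06 to 0.04, beside -0.20 to 0.16 for different numbers). With so few libraries, this cannot show whether the numbers pair them. With the replicate block, DNMT1 in H1792 was at -0.21 and not called (edgeR adjusted p = 0.0163), and the paired EZH1 to EZH2 log2 ratio in A549 was 2.10 with an exact sign-flip p of 0.125, the smallest for 4 pairs. The block could not be fitted for the DMSO contrast.

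Over all genes, the interaction gave 793 higher and 1355 lower calls, but 1416 and 1450 with DESeq2, 1012 and 1033 with its size factors in edgeR, 988 and 1047 with total counts, and 1369 and 1105 with the GC correction, which moved the median by 0.11. A threshold of 0.05 gave 1319 and 2297. Total-count scaling moved the median of the DMSO contrast by -0.11. H1792 higher calls were 2439, but 1382, 1464 and 1524 without AMG900 replicate 1, AMG900 replicate 2 or DMSO replicate 3 and 3689 at 0.05, and lower calls were 2827, but 1853 without AMG900 replicate 1. HELLS and SUZ12 in A549 rest on 9 to 130 counts per library, which limits their precision.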

Other observations

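In the list for histone H3 lysine 9 methylation, 6 of 11 genes tested were lower in A549 and 2 of 12 in H1792, beside 17.8% and 18.8% of all genes tested. SUV39H1, a lysine 9 methyltransferase, had a log2 fold change of -1.86 ± 0.13 (SE) in A549 (edgeR adjusted p = 4.2e-08) and 0.02 ± 0.08 in H1792 (adjusted p = 0.883), with an interaction of 1.81 ± 0.16 (adjusted p = 6.5e-08). The heterochromatin proteins CBX3 and CBX1 were lower in A549, at -1.01 and -0.76. The genes called lower in H1792 were CBX1 at -0.42 ± 0.06 (edgeR adjusted p = 2.7e-04) and SUV39H2 at -0.59 ± 0.12 (0.00263). WHSC1 (NSD2), which methylates histone H3 lysine 36, was lower in A549 at -1.33 ± 0.08 and not called in H1792 at -0.11 ± 0.05, with an interaction of 1.15 ± 0.10 (adjusted p = 6.2e-08).

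PRC1 is the complex that ubiquitinates histone H2A. The list of PRC1 and H2A ubiquitin genes had 5 of 21 lower in A549, and 6 of 22 lower and 2 higher in H1792. These counts were near the share over all genes (17.8% lower in A549, and 18.8% lower and 16.2% higher in H1792). The list also holds BAP1 and ASXL1, which act in removing the H2A mark, and ASXL1 was lower in A549 at -0.75 ± 0.08. CBX2 was lower in both lines, at -0.70 and -0.44, and PCGF6 was lower in H1792 at -1.09 ± 0.14. BMI1 was called in H1792 (-0.87 ± 0.21) and not in A549 (-1.36 ± 0.50, adjusted p = 0.0353), and RNF2 in neither. In the list for DNA demethylation, TET3 and OGT, a partner of the TET enzymes, were lower in A549, at -0.64 and -0.61. For this list edgeR called 0 of 6 in H1792, where 3 were lower and 1 higher at an unadjusted p under 0.05 and DESeq2 called 1 lower. TET1 had at most 8 counts in an A549 library.

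Germline and HOX genes are commonly silenced by these systems. Of 24 germline genes, 3 were tested in A549 with 1 higher (PRAME, 0.49 ± 0.07). In H1792, 11 were tested with 3 lower and 1 higher, beside 18.8% and 16.2% of all genes tested. MAGEA6 and MAGEA3 were lower there, at -0.59 and -0.53, and PRAME was higher at 0.25 ± 0.05. With the GC correction, 1 of 9 germline genes tested in H1792 was lower and 0 were higher. MAGEA3 and MAGEA6 had no GC content assigned and were left out of that fit, so their fall was not tested with the correction. Of 28 HOX genes tested in each line, 3 were higher in A549 (HOXC13 at 1.09, HOXC6 at 0.69 and HOXB13 at 0.62). In H1792, 7 were higher and 1 lower, led by HOXB6 at 0.78. Over all genes tested, 17.2% were higher in A549 and 16.2% in H1792. With the GC correction, 2 HOX genes were higher and 1 lower in A549, with a median log2 fold change of 0.007 in place of 0.18. In H1792, 5 were then higher and 2 lower, with a median of 0.09 in place of 0.32. The edgeR interaction test called 0 of 33 HOX genes, with 3 lower and 5 higher at an unadjusted p under 0.05. DESeq2 called 1 lower and 2 higher, and edgeR with the GC correction 0 lower and 3 higher.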
